A study of Homo sapiens with 4 samples.

Results

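Death receptors are cell surface proteins of the tumour necrosis factor receptor family that carry a death domain in their cytoplasmic tail. When their ligands bind, the adaptor FADD joins the receptors to the initiator caspases CASP8 and CASP10, which cleave and activate one another and then the executioner caspases. CFLAR, a caspase-like protein without protease activity, competes for the same complex, and XIAP and BIRC2 are inhibitor of apoptosis proteins that act on caspases and on receptor signalling. In T cells FAS is the receptor best known for removing activated cells. The 9 genes FAS, TNFRSF10A, TNFRSF10B, FADD, CASP8, CASP10, CFLAR, XIAP and BIRC2 were chosen by symbol in the GENCODE 29 annotation, and all 9 were found among the 28274 genes of the deposited table.

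RNA was sequenced from 4 libraries of a human cell line labelled J-gammal. The 2 control libraries are described as having no treatment and genotype none, and are titled NC, an abbreviation left unexplained. The other 2 libraries are labelled FYB1 knockdown, with sh-FYB1 in the title, and it is not stated whether both carry one construct. The labels do not say that replicate libraries came from separate cultures, so each p-value reflects a spread that may be technical only.

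Values are FPKM, fragments or reads per kilobase of exon relative to a library total. Whole reads were recovered from them and summed to between 16693113 and 20251864 per library. FYB1, the adaptor protein gene targeted by the knockdown, stood at 17.6 and 20.1 FPKM in the controls. In the knockdown libraries it stood at 6.18 and 4.53 FPKM. Its log2 fold change was -1.65 ± 0.15 SE (adjusted p = 0.0398 by limma-trend) and -1.83 ± 0.15 (adjusted p = 0.000419 by limma-voom). With 1 library left out it ran from -1.84 to -1.46 by limma-trend. Limma-trend lost the call without either knockdown library, and limma-voom kept it whichever library was left out. All 10 T cell markers looked up, among them CD3D, TRAC and LCK, had a mean of at least 1 FPKM. Their summed level lay between 1116 and 1512 FPKM, while 0 of 5 myeloid, 0 of 5 epithelial and stromal and 0 of the 4 NK cell markers with values reached 1 FPKM. The B cell list had 1 of 5 above that level, CD79A, and summed to between 11.7 and 25.5 FPKM.

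The abundance of the 9 transcripts in the controls ran from TNFRSF10B, at 22.8 ± 0.19 FPKM (SD, n = 2), to TNFRSF10A, at 0.841 ± 0.019 FPKM. FADD at 18.9 FPKM, BIRC2 at 15.9 FPKM and CASP8 at 9.13 FPKM followed TNFRSF10B in descending order, then XIAP at 6.0 FPKM, FAS at 5.05 FPKM, CASP10 at 2.30 FPKM and CFLAR at 1.24 FPKM. No 2 neighbours in this order had overlapping ranges over the 2 control libraries. In the knockdown libraries the order was the same except that TNFRSF10A, at 1.76 FPKM, came before CFLAR, at 1.71 FPKM. The ranges of this last pair overlapped, as did those of FADD and BIRC2. CFLAR is annotated with 22529 bases of merged exon, and its FPKM is per that length.

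After FYB1 knockdown 0 of the 9 genes passed the main test. On recovered reads CASP8 was called higher, at 1.36 times the control mean. TNFRSF10A, at 2.10 times, was called there too. It was tested only through its level in the knockdown libraries, so its call is a description. CASP10 and CFLAR stood at 1.35 and 1.38 times and did not pass. FAS, TNFRSF10B and BIRC2 lay between 0.925 and 0.992 times the control mean, FADD at 0.827 times and XIAP at 1.19 times, and none of these passed. The main test, limma-trend on log2(FPKM + 1), called 0 of the 9 genes at an adjusted p of 0.05 over 13172 tested genes, against 0.205% of all tested genes called in either direction. At an unadjusted p under 0.05 it had 3 of the 9, all higher, against 8.51% of all tested genes. The 2 calls on recovered reads were made by limma-voom, which called 1.94% of all tested genes higher and 5.8% lower. By limma-trend 5 of the 9 had a fitted level above the controls and 4 below, where 45.7% of all tested genes were above. By level alone, 5 of the 9 had both knockdown libraries above both controls, as had 26.0% of tested genes, and 2 had both below, as had 34.6%. All 9 passed the filter of a mean of at least 1 FPKM, TNFRSF10A only through its level in the knockdown libraries. These counts and the median of the 9 genes are therefore a description. The median log2 fold change of the 9 genes was 0.21 by limma-trend, beside -0.03 over all tested genes.

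**Figure D1:**
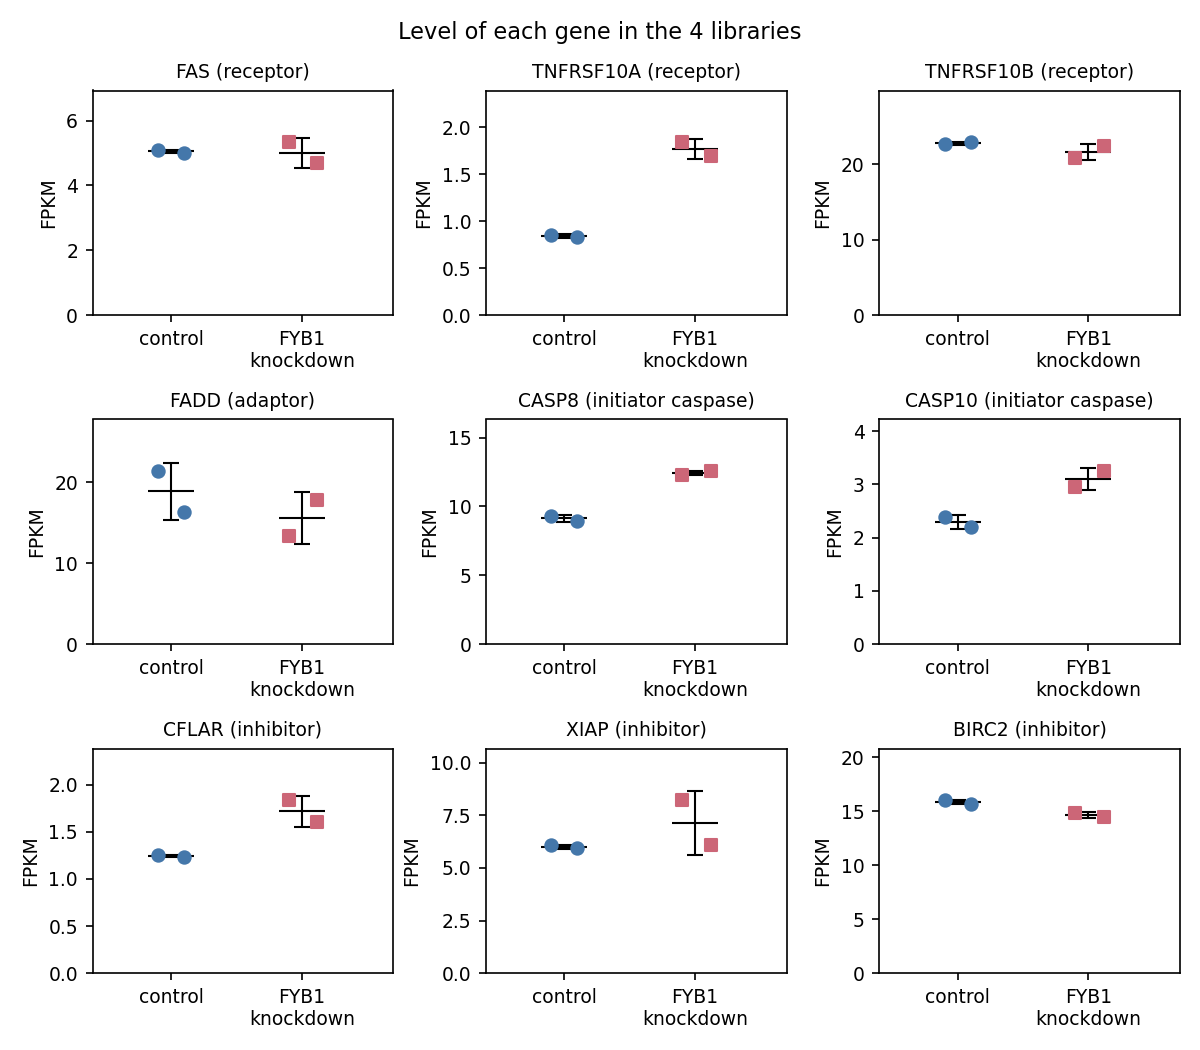
Level of the 9 genes in FPKM (vertical axes, each from 0) in the control libraries (blue circles, library 1 left and library 2 right) and the FYB1 knockdown libraries (red squares, in the same order). Black bars are the mean and SD of 2 libraries, and the knockdown points of TNFRSF10A, CASP8, CASP10, CFLAR and XIAP lie above both control points. For XIAP knockdown library 2 does so barely, at 6.08 FPKM against 6.07 FPKM in control 1.

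CASP8 is the initiator caspase that FADD recruits to death receptors. Its start regions are shown because it was one of the 2 genes called on recovered reads and the reference table gives 3 of them. The gene-level values cannot tell these apart. The sequences are RefSeq's on GRCh38.p14, plus strand of chromosome 2, each a window of 300 bases around an annotated start. Capitals mark the words AGGAAGT and TGACTCA on either strand, the first a core word of ETS factors and the second of AP-1 factors.
CASP8 start 1 (chr2:201233213-201233512): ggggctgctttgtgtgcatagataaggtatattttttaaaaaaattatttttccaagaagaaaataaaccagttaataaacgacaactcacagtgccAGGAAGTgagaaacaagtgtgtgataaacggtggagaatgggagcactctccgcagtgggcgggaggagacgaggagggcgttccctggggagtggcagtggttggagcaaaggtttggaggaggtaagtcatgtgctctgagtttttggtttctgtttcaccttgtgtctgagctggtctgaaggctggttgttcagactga
CASP8 start 2 (chr2:201257785-201258084): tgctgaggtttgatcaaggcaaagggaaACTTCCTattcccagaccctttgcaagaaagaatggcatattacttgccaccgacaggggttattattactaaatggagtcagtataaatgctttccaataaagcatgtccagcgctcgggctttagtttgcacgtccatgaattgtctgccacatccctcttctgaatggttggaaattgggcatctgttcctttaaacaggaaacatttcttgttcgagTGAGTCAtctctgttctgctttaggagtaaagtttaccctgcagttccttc
CASP8 start 3 (chr2:201260286-201260585): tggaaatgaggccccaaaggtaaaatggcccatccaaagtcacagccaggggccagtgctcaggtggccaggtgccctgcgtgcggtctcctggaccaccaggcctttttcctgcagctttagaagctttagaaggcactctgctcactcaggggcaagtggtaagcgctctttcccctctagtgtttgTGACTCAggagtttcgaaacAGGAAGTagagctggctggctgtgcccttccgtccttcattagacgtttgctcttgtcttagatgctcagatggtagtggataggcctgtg

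On both strands 6 words were searched, of which the 2 found in most CASP8 windows are capitalised. AGGAAGT stood in all 3 CASP8 windows and TGACTCA in 2 of them, and the words did not overlap. Of all 35116 windows in the reference table, 8.24% held AGGAAGT and 4.95% held TGACTCA. The 2 words were marked because they stood in most of the 3 windows of this 1 gene, so setting them beside these shares is no test. The table was read for 5 further genes, FAS, FADD, CFLAR, XIAP and BIRC2, with 13 windows in all, of which some overlap. AGGAAGT was found in 1 of these, at a CFLAR start, and TGACTCA in 0. The GC box word GGGCGG stood in 1 of the 3 CASP8 windows, in 10 of the other 13 and in 45.0% of all windows. The interferon-stimulated response element word and the STAT word TTCNNNGAA each stood in 1 of the 3 CASP8 windows and 0 of the other 13 (3.57% and 7.66% of all windows), and the NF-kappaB consensus word in 0 of either (0.191%). CASP10 has no entry there, and the windows of TNFRSF10A and TNFRSF10B were not used here. A match describes the letters and no more.

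CASP8 (ENSG00000064012, chromosome 2, 201233443 to 201287711, plus strand, hg38) measured 9.33 FPKM in control 1, 8.94 FPKM in control 2, 12.3 FPKM in knockdown library 1 and 12.5 FPKM in knockdown library 2. These values rest on 1125, 1087, 1642 and 1861 reads. Both knockdown libraries were above both controls, and the 2 libraries within each group lay close together. The log2 fold change was 0.41 ± 0.09 (SE) in the limma-trend fit (adjusted p = 0.125) and 0.44 ± 0.12 in the limma-voom fit on recovered reads (adjusted p = 0.0454). The limma-voom call ended without control 1 (adjusted p = 0.402), control 2 (adjusted p = 0.325) or knockdown library 1 (adjusted p = 0.0761). Its fold change stayed between 0.30 and 0.53 over the 20 alternative fits.

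CASP10 (ENSG00000003400, chromosome 2, 201182881 to 201229406, plus strand) is the second human initiator caspase of the receptor complexes and lies next to CASP8. It stood at 2.39 and 2.20 FPKM in the controls and at 2.95 and 3.25 FPKM in the knockdown libraries, from 302, 281, 413 and 505 reads. The knockdown values were above both controls. The difference did not pass either test (log2 fold change 0.31 ± 0.12, adjusted p = 0.195 by limma-trend, and 0.43 ± 0.15, adjusted p = 0.0884 by limma-voom). The ratio of CASP10 to CASP8 within a library, which does not depend on the library total, was 0.256 and 0.246 in controls against 0.240 and 0.259 after knockdown. The groups overlapped in this ratio (two-sided exact permutation test, p = 1). With 2 against 2 libraries that test allows no p below 0.333, so it could not have passed.

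CFLAR (ENSG00000003402, chromosome 2, 201116104 to 201176687, plus strand) encodes c-FLIP, which enters the receptor complex in the place of a caspase. It stood at 1.25 and 1.23 FPKM in the controls and at 1.83 and 1.60 FPKM in the knockdown libraries, from 468, 466, 761 and 737 reads. Its log2 fold change was 0.28 ± 0.15 by limma-trend (adjusted p = 0.316) and 0.46 ± 0.14 by limma-voom (adjusted p = 0.0605), neither past the threshold. With 1 library left out it ran from 0.21 to 0.34 by limma-trend. The log2 fold change was -0.01 ± 0.15 after each library was corrected for a curve on merged exon length and GC content of the longest transcript. The ratio of CFLAR to CASP8, inhibitor to enzyme, was 0.134 and 0.138 in controls against 0.149 and 0.127 after knockdown. Knockdown library 1 was the highest of the 4 and knockdown library 2 the lowest (two-sided exact permutation test, p = 1). Here too no p below 0.333 was possible, so the test does not show that the ratio was unchanged.

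CFLAR, CASP10 and CASP8 lie side by side on the same strand. Within 300 kb of these 3 genes, 9 other coding genes were tested, of which 6 had a higher and 3 a lower fitted level in the knockdown libraries. Their log2 fold changes ran from -0.43 for NDUFB3, a subunit of respiratory complex I, to 0.33 for TRAK2, an adaptor of mitochondrial transport. None of the 9 was called by limma-trend or limma-voom. Of the 9, 2 had both knockdown values above both controls, TRAK2 (2.50 and 2.60 against 3.49 and 3.43 FPKM) and ORC2, a subunit of the origin recognition complex (2.48 and 2.55 against 3.32 and 2.74 FPKM). NDUFB3 had both below, and the other 6 overlapped. Over all tested genes, 26.0% had both above, 34.6% had both below and 45.7% had a higher fitted level. These neighbours were looked up after the values of the 3 genes were seen.

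**Figure D2:**
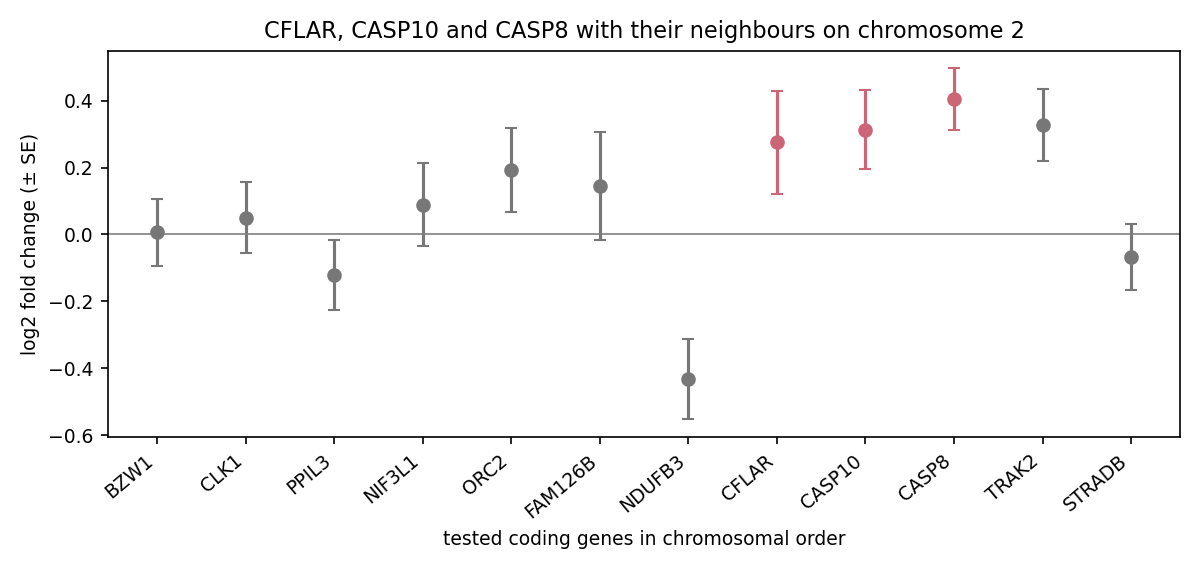
Log2 fold change by limma-trend with its SE (vertical axis) for the 12 tested coding genes of the locus on chromosome 2, in chromosomal order (horizontal axis). CFLAR, CASP10 and CASP8 (red) lie at 0.28, 0.31 and 0.41, and the other genes (grey) between -0.43 and 0.33.

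TNFRSF10A (ENSG00000104689, chromosome 8, 23190452 to 23225126, minus strand) encodes DR4, a receptor for the ligand TRAIL. It was the least abundant of the 9 transcripts in the controls, at 0.855 and 0.828 FPKM, and stood at 1.84 and 1.69 FPKM in the knockdown libraries. These values rest on 42 and 41 reads against 100 and 102. The exact 95% Poisson interval, which covers counting error only, ran up to 1.16 FPKM in control 1, the higher control, and down to 1.38 FPKM in knockdown library 2, the lower of its group. These intervals did not overlap. Those of CASP8 (up to 9.89 FPKM in controls, down to 11.7 FPKM after knockdown) and CFLAR (1.37 and 1.48 FPKM) were also apart. The intervals of the other genes overlapped between groups. The log2 fold change of TNFRSF10A was 0.59 ± 0.16 by limma-trend (adjusted p = 0.148), and the added 1 FPKM makes it smaller than the ratio of the means. TNFRSF10A passed the filter of a mean of at least 1 FPKM only through its level in the knockdown libraries, so its tests are a description. By limma-voom the log2 fold change was 1.05 ± 0.27 with an adjusted p of 0.0411. That call ended without control 1 (adjusted p = 0.265), control 2 (adjusted p = 0.159) or knockdown library 1 (adjusted p = 0.116).

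Other transcripts at the TNFRSF10A locus complicate the assignment of its reads. TNFRSF10A-AS1 and AC100861.1 are noncoding genes on the opposite strand that share 7.59% and 9.01% of the exon bases of TNFRSF10A. TNFRSF10A-AS1 had 1 and 0 reads in the controls and 6 and 10 after knockdown, and AC100861.1 had 4 and 9 against 32 and 29. Both were therefore higher in both knockdown libraries, and whether counting used strand is unknown from the labels. Their part in the TNFRSF10A reads was not tested. The genes whose pattern over the 4 libraries was nearest to TNFRSF10A, by Euclidean distance of deviations from the gene's own mean, were PCMTD2 (0.0479), FOXK1 (0.0480) and GUCA1B (0.0511). There were 19 genes within a distance of 0.1.

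TNFRSF10B (ENSG00000120889, chromosome 8, 23020133 to 23069179, minus strand) encodes DR5, the other signalling receptor for TRAIL. It was the most abundant of the 9 transcripts, at 22.6 and 22.9 FPKM in the controls and at 20.9 and 22.4 FPKM in the knockdown libraries. Both knockdown values lay just below the controls, and the difference did not pass the test (log2 fold change -0.07 ± 0.10, adjusted p = 0.683 by limma-trend; 0.06 when libraries were scaled to their summed reads). The ratio of TNFRSF10A to TNFRSF10B was 0.0378 and 0.0361 in controls against 0.0880 and 0.0753 after knockdown. The ratio was thus 2.20 times as high after knockdown, with no overlap (two-sided exact permutation test, p = 0.333, the smallest that 2 against 2 libraries allow). TNFRSF10B was the more abundant of the pair in all 4 libraries. The receptors of this cluster resemble one another in sequence, and how reads shared between them were counted is not given.

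FAS (ENSG00000026103, chromosome 10, 88990582 to 89015785, plus strand), the receptor for FAS ligand, stood at 5.08 and 5.01 FPKM in the controls and at 5.33 and 4.68 FPKM in the knockdown libraries. The controls lay between the 2 knockdown values. The log2 fold change was -0.01 ± 0.10 (adjusted p = 0.949 by limma-trend) and 0.10 when libraries were scaled to their summed reads. It did not change beyond the spread of the libraries, and of its exon bases 8.93% are shared with ACTA2 on the opposite strand, which had 23 to 36 reads in each library against 358 to 418 for FAS.

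FADD (ENSG00000168040, chromosome 11, 70203163 to 70207390, plus strand) is the adaptor through which these receptors reach the caspases. It stood at 21.3 and 16.4 FPKM in the controls and at 13.3 and 17.8 FPKM in the knockdown libraries. The groups overlapped, and the difference between the 2 controls (0.36 on the log2 scale) was larger than the difference between group means (log2 fold change -0.26 ± 0.19, adjusted p = 0.412 by limma-trend). The ratio of FADD to CASP8 was 2.29 and 1.83 in controls against 1.08 and 1.42 after knockdown. That ratio did not overlap between groups (two-sided exact permutation test, p = 0.333, the smallest possible). FADD has 1841 bases of exon, the shortest of the 9, and 54.9% of them are also annotated to the antisense gene AP000879.1, whose values were not used here.

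XIAP (ENSG00000101966, chromosome X, 123859724 to 123913979, plus strand) binds and blocks the executioner caspases and CASP9. It stood at 6.07 and 5.93 FPKM in the controls and at 8.22 and 6.08 FPKM in the knockdown libraries. Knockdown library 1 was well above the other 3, and knockdown library 2 lay barely above control 1. The log2 fold change was 0.21 ± 0.14 (adjusted p = 0.405 by limma-trend), and 0.02 without knockdown library 1. Without knockdown library 2 it was 0.40 by limma-trend. By limma-voom on all libraries it was 0.23 (adjusted p = 0.330), so XIAP passed neither test.

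BIRC2 (ENSG00000110330, chromosome 11, 102347211 to 102378670, plus strand) encodes cIAP1, a ubiquitin ligase that acts on RIPK1 at tumour necrosis factor receptors. It stood at 16.0 and 15.7 FPKM in the controls and at 14.9 and 14.5 FPKM in the knockdown libraries. The groups did not overlap, and the log2 fold change of -0.11 ± 0.09 did not pass the test (adjusted p = 0.502 by limma-trend). It was 0.00 under quantile normalization and 0.02 when libraries were scaled to their summed reads. The ratio of XIAP to BIRC2 was 0.379 and 0.377 in controls against 0.553 and 0.419 after knockdown.

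**Figure D3:**
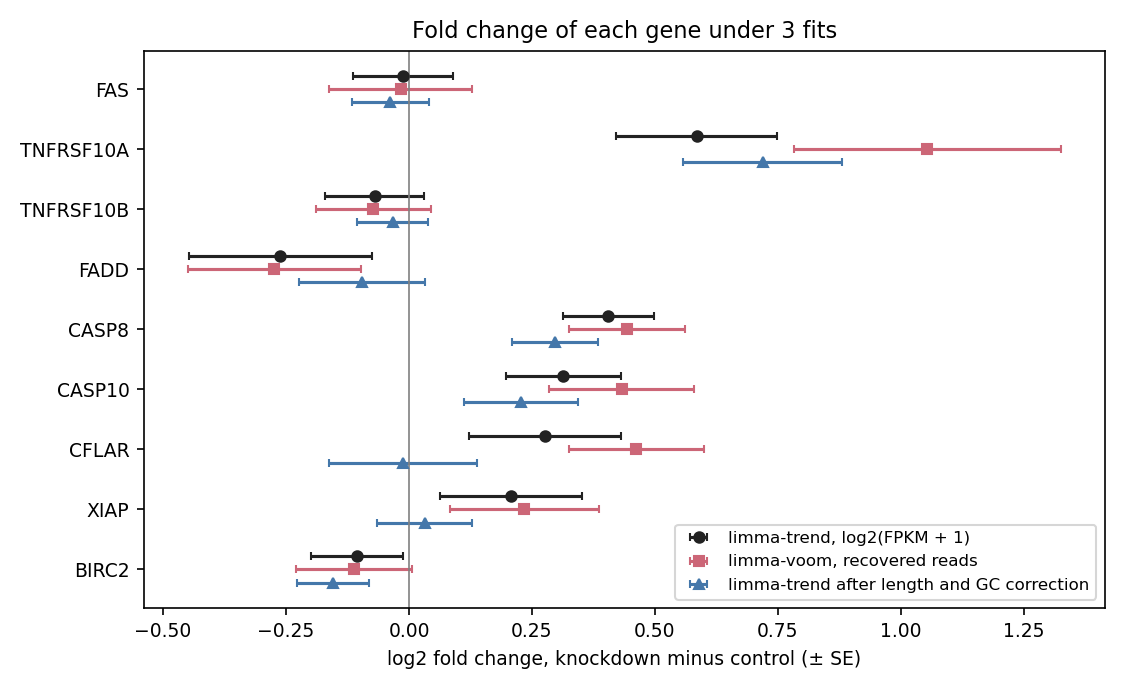
Log2 fold change with its SE (horizontal axis) of each of the 9 genes by limma-trend (black), limma-voom on recovered reads (red) and limma-trend after the length and GC correction (blue). TNFRSF10A, CASP8, CASP10 and XIAP lie above 0 in all 3 fits, XIAP at 0.03 after the correction, while CFLAR moves from 0.28 to -0.01.

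Exon length ran with the fold changes over the whole table and touches this set. Across 10570 tested coding genes, which are not independent replicates, the Spearman correlation of the log2 fold change was 0.45 with exon length and -0.35 with GC content. Over all 13172 tested genes, coding or not, it was 0.22 with exon length and -0.29 with GC content. The 4 longest of the 9 genes, CFLAR, XIAP, CASP10 and CASP8 (22529, 9025, 7598 and 7243 bases), were all on the higher side, and the shortest, FADD, had the lowest fold change. TNFRSF10A, with 2951 bases, did not follow that order. After the length and GC correction the log2 fold change was 0.72 for TNFRSF10A, 0.30 for CASP8, 0.23 for CASP10, 0.03 for XIAP and -0.10 for FADD. None was called by limma-trend before or after the correction. The limma-trend adjusted p went from 0.148 to 0.0855 for TNFRSF10A and from 0.125 to 0.12 for CASP8. Limma-voom, which had called these 2 genes, was not run with the correction. After it the median of the 9 was -0.01.

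**Figure D4:**
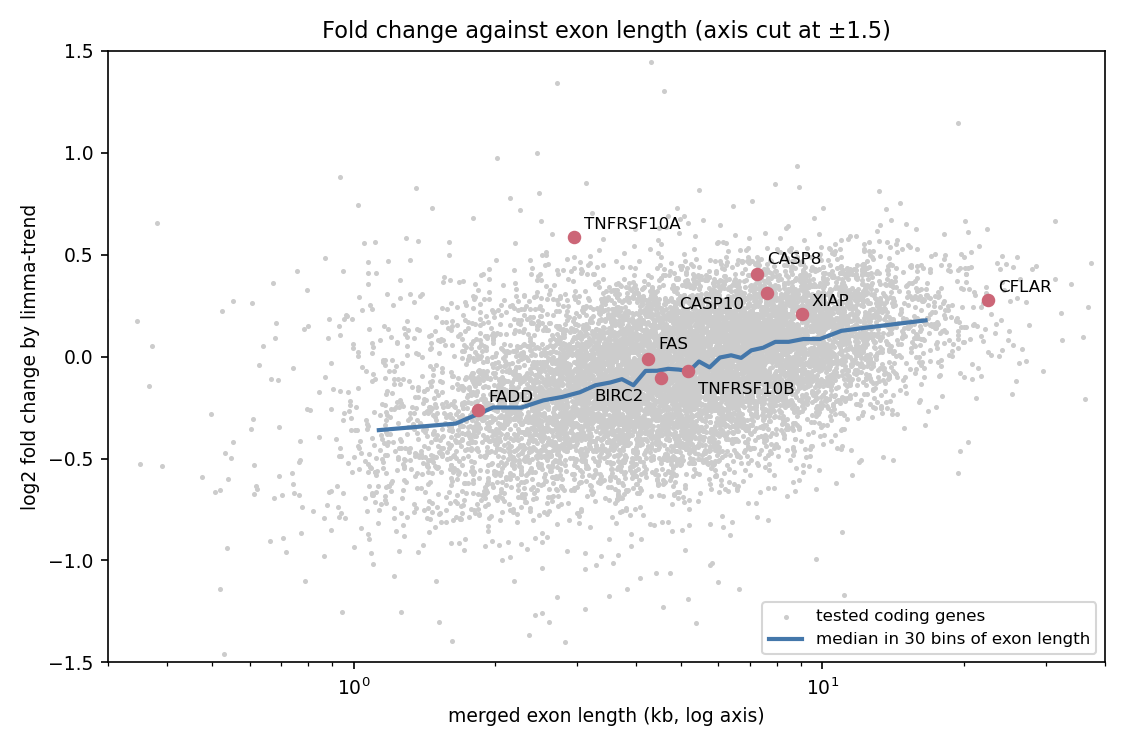
Log2 fold change by limma-trend (vertical axis, cut at ±1.5) against merged exon length in kb (horizontal log axis) for tested coding genes (grey), with the median in 30 bins of length (blue line) and the 9 genes (red). TNFRSF10A at 0.59 and CASP8 at 0.41 lie above the line, and FADD, TNFRSF10B and BIRC2 lie close to it.

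Other genes of the same pathway were read from lists drawn up for this work. Most ligands and decoy receptors were scarce. Of 12 ligands and decoys looked up, 10 had values and 3 were tested. TNFSF10, which encodes TRAIL, averaged 4.63 FPKM in the controls and 4.82 FPKM after knockdown, and LTB, a subunit of lymphotoxin, at 2.67 and 2.92 FPKM, with neither past a test. FASLG, the FAS ligand, was at 0.0634 and 0.0963 FPKM. The decoy receptor TNFRSF10D, beside TNFRSF10A on chromosome 8, was at 0.611 and 0.690 FPKM in controls against 0.322 and 0.400 FPKM after knockdown, below the filter.

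Other receptors and adaptors split both ways, with 7 of 13 higher and 6 lower (median log2 fold change 0.08). TNFRSF1A, the main death domain receptor for tumour necrosis factor, was the gene of this list that passed the recovered-read test. It fell from 31.9 ± 1.52 to 20.4 ± 2.90 FPKM (log2 fold change -0.65 ± 0.13, limma-voom adjusted p = 0.0215). Among 10 tested regulators of the receptor complexes, 4 were higher and 6 lower (median -0.07), and PEA15, a death effector domain protein that can bind FADD and CASP8, fell from 38.5 ± 1.03 to 28.0 ± 3.46 FPKM by the same test (adjusted p = 0.0494, limma-voom). Of the other inhibitor of apoptosis proteins and their antagonists, 2 of 5 tested were higher and 3 lower (median -0.19). BIRC5, survivin, which also serves in cell division, fell from 51.0 ± 5.66 to 32.1 ± 4.38 FPKM (adjusted p = 0.0225 in limma-voom). None of these 3 genes was called by limma-trend with group as the single term.

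The executioner side showed no call by either test. Of 13 tested caspases, apoptosome genes and substrates, 4 were higher and 9 lower (median -0.13), and before adjustment 1 reached a p under 0.05 in limma-trend and 4 in limma-voom, all lower, where 14.9% and 18.1% of all tested genes did so on the lower side. PARP1, a DNA repair enzyme that caspases cleave, stood at 60.9 and 50.01 FPKM, and ENDOG, a mitochondrial nuclease, at 38.5 and 25.4 FPKM. In the list of necroptosis and ubiquitin control of RIPK1, 8 of 14 were higher and 6 lower (median 0.04). TNIP1, a ubiquitin-binding partner of TNFAIP3, fell from 21.2 ± 0.72 to 14.3 ± 2.34 FPKM (adjusted p = 0.0316 in limma-voom).

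The BCL2 family, which governs the mitochondrial route to apoptosis, had 4 of 13 tested genes higher and 9 lower, with a median of -0.16 beside the 0.21 of the 9 genes. No test of that difference was made. BAD, a killer protein of the family, fell from 28.97 ± 1.76 to 17.6 ± 5.95 FPKM by limma-voom (adjusted p = 0.0396). Targets of p53, to which FAS and TNFRSF10B belong, had 6 of 18 higher and 12 lower (median -0.09). MDM2, the ubiquitin ligase of p53, rose from 4.10 ± 0.068 to 7.04 ± 1.34 FPKM (adjusted p = 0.0178 in limma-voom), and PHLDA3, an inhibitor of AKT, fell from 16.1 ± 0.79 to 10.3 ± 1.98 FPKM (adjusted p = 0.0304 in limma-voom). Targets of NF-kappaB, to which FAS, CFLAR and BIRC2 belong, had 5 of 15 higher and 10 lower (median -0.11), with TNIP1 again the gene called by limma-voom.

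Of the 7 list genes called by limma-voom 6 were lower and MDM2 was higher. That test called 5.8% of all tested genes lower and 1.94% higher. Each list, with 3 to 18 tested genes, held at most 1 lower call. These calls describe single genes and were not tested as a trait of the lists. These 7, TNFRSF1A, PEA15, BIRC5, TNIP1, BAD, MDM2 and PHLDA3, were all lost without control 1 (adjusted p from 0.0798 for MDM2 to 0.459 for PEA15) and without knockdown library 1 (from 0.0581 for MDM2 to 0.121 for BAD). Without control 2, BAD, BIRC5 and MDM2 were still called, and TNFRSF1A, TNIP1, PHLDA3 and PEA15 were not (adjusted p from 0.0535 to 0.220). All 7 were called without knockdown library 2. That last fit called far more genes over the whole table than the fit on all libraries, so a call there says little about a single gene. The direction of each of the 7 was the same in all 4 fits with 1 library left out.

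**Figure D5:**
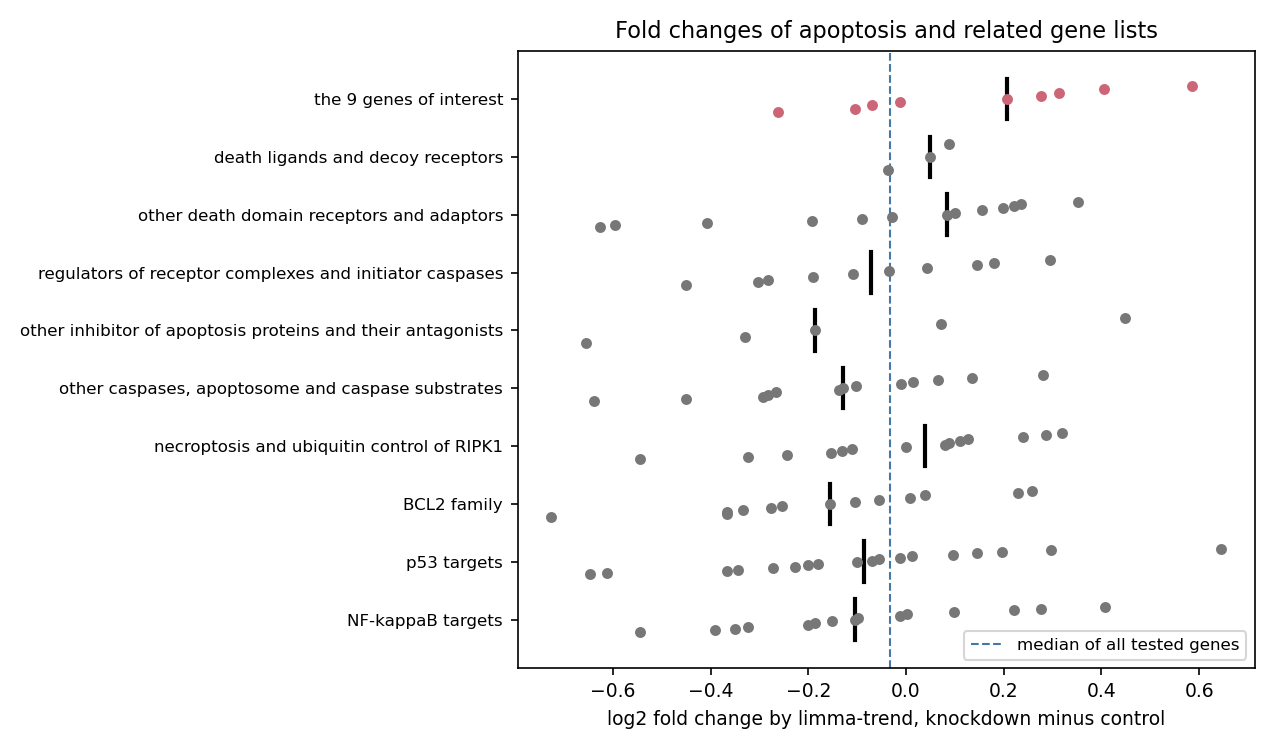
Log2 fold change by limma-trend (horizontal axis) of the tested genes in each list (points, spread vertically for clarity), with the list median (black bar) and the median of all tested genes (dashed line, -0.03). The 9 genes (red) have a median of 0.21, and the BCL2 family a median of -0.16. The 9 include TNFRSF10A, which passed the filter only through its level in the knockdown libraries.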

How the data were processed

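Messenger RNA was measured in 2 control and 2 FYB1 knockdown libraries. Trizol and an Illumina TruSeq RNA kit served for extraction and library preparation, per the labels' protocols. HISAT2 2.0.5 and the build hg38 are named per the submitters' processing notes. The counting program, annotation and strand setting were not given in the sources used here. The deposited table names no unit. Its values were taken as FPKM scaled by the authors, because value times merged exon length in GENCODE 29 gave whole multiples of 1 step per library for 100% of values above 0, within 0.01 read. Dividing by the step gave the recovered reads. These sums differ from the library totals the authors divided by, 16648943 to 20480491.

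Limma-trend (limma 3.58.1, R 4.3.3) was fitted to log2(FPKM + 1) as the main test, with group as the single term. It covered 13172 genes whose mean reached 1 FPKM. P-values were adjusted over all of them by the Benjamini-Hochberg method at 0.05. Limma-voom was run beside it on the recovered reads, taking library sizes from the authors' totals. Fold changes are knockdown minus control. The scripts were tested on simulated data. The 9 genes and the lists were chosen with earlier results of these data known. The named genes are the 9, FYB1, and from each list up to 4 genes past either test, otherwise the 2 with the highest mean, plus the 3 genes with a pattern nearest to TNFRSF10A. Where 2 table rows share a symbol (DIABLO), the higher was used. Alternatives were a replicate block, other library scalings, filters and pseudocounts, a length and GC correction, and each library left out.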

Additional observations from a re-analysis of the deposited data

How the results depend on the processing

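Over 177 alternative values for the 9 genes, 160 kept direction and side of the threshold, 8 passed it and 9 changed sign. The cause was not tested. By log2 fold change FAS was 0.10 when libraries were scaled to their sum of reads, from -0.090 to 0.066 with 1 library left out, and 0.078 by limma-voom without knockdown library 2. TNFRSF10B became 0.10 (quantile normalization) and 0.062 (sum of reads), BIRC2 0.0011 and 0.024, and CFLAR -0.012 after the length and GC correction, with or without the replicate block. PARP1 became 0.0033 with quantile normalization. With 1 library left out TNFSF10 ran from -0.035 to 0.13 and LTB from -0.079 to 0.25. The log2 difference of the CFLAR to CASP8 ratio, 0.02, became -0.13 with a pseudocount of 1 and ran from -0.093 to 0.13 with 1 library left out.

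The whole table had 27 calls by limma-trend, 1019 by limma-voom, 45 with quantile normalization, 76 with the sum of reads, 157 after the length and GC correction, 0 with every gene above 0 and 181 at a mean of at least 5 FPKM. The count ran from 0 to 406 with 1 library left out. By limma-voom it was 136 without control 1, 496 without control 2, 102 without knockdown library 1 and 3877 without knockdown library 2. The 9 genes had 0 calls in these limma-trend fits, 2 by limma-voom, and 4 by limma-voom without knockdown library 2 (CASP8, CFLAR, TNFRSF10A and XIAP). A library left alone in its group was assumed to vary like the other group.

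Libraries with the same number did not deviate together (correlation -0.21), so the numbers were not taken as pairs. A replicate block gave 781 calls over the table and 0 among the 9 genes, and 66 with the length and GC correction. By limma-voom the block gave 1072, with TNFRSF10A (adjusted p = 0.0328) as the 1 call among the 9 and CASP8 at 0.102. Among the named list genes the block added limma-trend calls for TNFRSF1A (adjusted p = 0.0490), BAD (0.0235), MDM2 (0.00866) and PHLDA3 (0.0241), none of them called when the length and GC correction was added. By limma-voom the block ended the call of PEA15 (0.0816) and added ENDOG (0.0125). Crossing the numbers gave 1910 calls and 1 among the 9. That fit and the limma-voom fits with a block or with a library left out were chosen after seeing the data.

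The median log2 fold change of the 9 genes, 0.21, became -0.012 after the length and GC correction, with or without the replicate block, and -0.041 at a mean of at least 5 FPKM, which tests fewer of them. It ran from 0.016 to 0.26 with 1 library left out. With the sum of reads the median of all tested genes moved from -0.03 to 0.08. List medians then became 0.16 for ligands and decoys, 0.19 for other receptors and adaptors, 0.046 for complex regulators, -0.076 for other inhibitors of apoptosis, -0.0022 for other caspases, 0.14 for necroptosis and 0.024 for NF-kappaB targets. Under quantile normalization they were 0.044 for receptors, 0.0033 for caspases, 0.13 for necroptosis and -0.034 for NF-kappaB targets. After the length and GC correction, with or without the replicate block, they were 0.12 for ligands, 0.16 for receptors and -0.038 for NF-kappaB targets. By limma-voom receptors had 0.11. With every gene above 0, other inhibitors had -0.079 and NF-kappaB targets -0.012. At 5 FPKM receptors had -0.030, other inhibitors -0.49 and NF-kappaB targets -0.15. A pseudocount of 0.1 gave receptors 0.11, and one of 5 gave receptors 0.042, other inhibitors -0.11, caspases -0.090 and NF-kappaB targets -0.084. With 1 library left out, medians ran from -0.035 to 0.11 for ligands, -0.034 to 0.085 for receptors, -0.28 to 0.0020 for other inhibitors, -0.16 to -0.077 for caspases, -0.28 to -0.032 for p53 targets and -0.12 to -0.020 for NF-kappaB targets.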
